A study of Homo sapiens with 16 samples.

Results

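Tumours in which SHP2 had been depleted with the hairpin SHP2 miR2 (3 tumours) were compared with all tumours that carried the control hairpin CTRL miR (6 tumours), 9 of the 16 arrays of the series. The arrays were chosen by the group named in each title. The features were all transcript clusters listed with exactly 1 gene symbol (19310 of 28869), with the cluster of the highest mean signal taken for each of 18377 genes. Both groups were xenografts of BT474, an established human breast cancer line with amplified ERBB2 (HER2), injected into the mammary fat pad; the host mice were immunodeficient. The cells of both carried a lentiviral vector from which doxycycline induces a microRNA, either CTRL miR or SHP2 miR2. Once tumours had formed, the drinking water of both held doxycycline (2 g per L) over 30 days. RNA of each dissected tumour (100 ng) was read on 1 human gene array. A second hairpin, SHP2 miR1 (7 tumours), served for a test of differences between the hairpins. Tumours are numbered in the titles but are not tied to animals, so p-values measure the spread between these tumours. The 3 miR2 tumours limit the precision.

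PTPN11 encodes SHP2, a phosphatase for tyrosine residues that has a pair of SH2 domains. It is recruited to activated receptor tyrosine kinases and to their docking proteins, such as GAB1, and is needed for full activation of RAS and ERK. ERK in turn induces transcription factors and its own inhibitors, among them DUSP6 and the Sprouty proteins, and stabilises MYC, a transcription factor that drives ribosome production and cell growth. BT474 cells also express the oestrogen and progesterone receptors.

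Some differences between arrays were not given by the groups. Control tumours 1, 3, 4 and 6 stood apart from control tumours 2 and 5: IRS4, a docking protein of the insulin receptor, had a log2 signal of 7.14 to 8.29 in the former and of 3.16 and 3.77 in the latter. Results are therefore also given against control tumours 2 and 5 alone. By the mean of 5 noncoding RNAs the arrays formed 2 sets, and all miR2 tumours lay in set B with control tumours 4, 5 and 6. The spread of values over clusters was narrower in miR2 tumours 1 and 3, whose SD was 1.89, than in miR2 tumour 2 (1.98) and the controls (1.95 to 2.05). Markers of the labelled cell line were present: the mean log2 signal of 11 BT474 markers was 9.16 to 9.78 in the controls and 9.43 to 9.56 with miR2, and all 11 were above the lower quartile in at least 1 of the 9 arrays. In a dissected tumour, fewer cells of a type and less RNA per cell cannot be told apart.

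PTPN11 was lower in every miR2 tumour than in every control. The control tumours had 8.23 at the lowest, 8.39 at the median and 8.61 at the highest, and the miR2 tumours had 6.52, 6.53 and 6.35. The log2 change was -1.94 ± 0.12 (SE), with a limma adjusted p of 6.97e-09, which left 26.1% of the control signal. The two-sided exact permutation test over the 9 tumours gave p = 0.0119, the smallest that 84 permutations allow. Against control tumours 2 and 5 alone the change was -1.79 (limma adjusted p = 1.26e-06).

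Over all genes, 2163 of 18377 were higher with miR2 (11.8%) and 3345 were lower (18.2%), at a limma adjusted p below 0.05 after Benjamini-Hochberg. Most changes were small. Of the genes called, 81 rose and 347 fell by more than 2-fold, and 12 rose and 30 fell by more than 4-fold. Every miR2 tumour lay above every control for 1201 genes (6.54%) and below every control for 2060 (11.2%). Against control tumours 2 and 5 alone, 256 genes were higher (1.39%) and 547 lower (2.98%), or 4.37% in either direction. Within array set B, 716 were higher (3.9%) and 1834 lower (9.98%). Centring each array on its median gave 1295 higher and 4146 lower. The counts also depended on single tumours. Without miR2 tumour 1 they were 872 higher and 2063 lower, without miR2 tumour 3 they were 781 and 1610, and without control tumours 1, 3 and 5 in turn the higher calls were 1365, 1414 and 3627.

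The change with miR2 moved with signal level in the deposited values. With genes divided into 3 equal classes by mean signal, its median was 0.19 in the dimmest class, 0.019 in the middle class and -0.19 in the brightest. After quantile normalization, which gives all arrays the same distribution of values, these medians were 0.054, 0.026 and -0.035, and 2083 genes were higher (11.3%) and 2798 lower (15.2%). A small rise of a dim gene or a small fall of a bright one is thus within what genes of that level showed in general. Medians with quantile normalization are given below for the gene lists. Counts of list members called in a fit are to be read against the share of all genes called in it. With both quantile normalization and control tumours 2 and 5 alone, 310 genes were higher (1.69%) and 527 lower (2.87%), or 4.55% in either direction. Leaving out both arrays with the narrower spread left miR2 tumour 2 alone, which was then assumed to vary like the other groups, and 273 genes were higher and 177 lower.

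**Figure D1:**
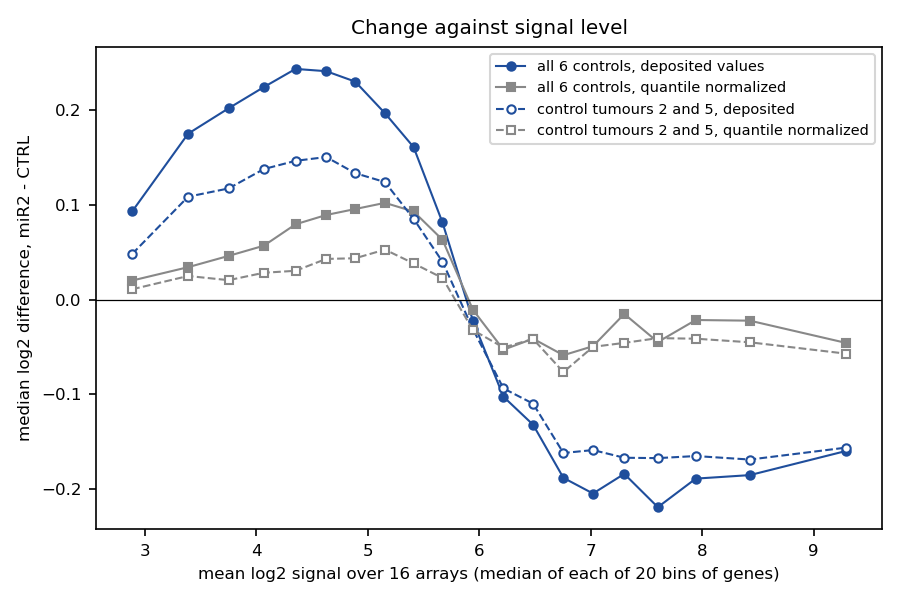
Median log2 difference between miR2 and control tumours (vertical) for 20 bins of genes ordered by mean log2 signal over all arrays (horizontal), with deposited values (circles) and after quantile normalization (squares), against all 6 controls (filled) or control tumours 2 and 5 (open). In deposited values dim genes lie above 0 and bright genes below 0, and quantile normalization brings both closer to 0.

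Several genes induced by ERK fell with miR2. Of 22 measured ERK output list members 9 fell and 1 rose, against 18.2% and 11.8% of all genes, and 12 did not pass. The median change was -0.35 (-0.25 with quantile normalization), against 0.023 over all genes tested. The member that rose was the inhibitor SPRY1 (0.35, limma adjusted p = 0.0355; 0.47, adjusted p = 0.108 against control tumours 2 and 5). Here and below, members that went against the rest of a list are named after their values were seen. MYC had 6.99 at the lowest, 7.61 at the median and 7.75 at the highest in the controls, and 4.73, 5.28 and 5.27 with miR2. All miR2 tumours lay below all controls, and the change was -2.37 ± 0.17 (SE; limma adjusted p = 1.88e-08), a 5.17-fold fall. DUSP6, the phosphatase that removes the activating phosphates from ERK, had 6.999 to 7.33 in the controls (median 7.16) and 5.78, 5.42 and 5.55 with miR2, a change of -1.58 ± 0.17 (SE; limma adjusted p = 3.63e-06). SPRY4, a Sprouty inhibitor of receptor signalling, ranged from 5.99 to 6.55 in the controls and was 4.95, 5.10 and 5.15 with miR2 (-1.15, limma adjusted p = 3.21e-05). In both genes the groups did not overlap. The ETS factors ETV4 (-0.99) and ETV5 (-0.82) also fell, as did the cell cycle regulator CCND1 (-0.45, limma adjusted p = 0.0127), which did not pass after quantile normalization (-0.29, adjusted p = 0.122). When the reference was control tumours 2 and 5 alone, 8 members fell and 0 rose (median -0.28), and MYC changed by -1.97, DUSP6 by -1.71 and SPRY4 by -1.08.

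**Figure D2:**
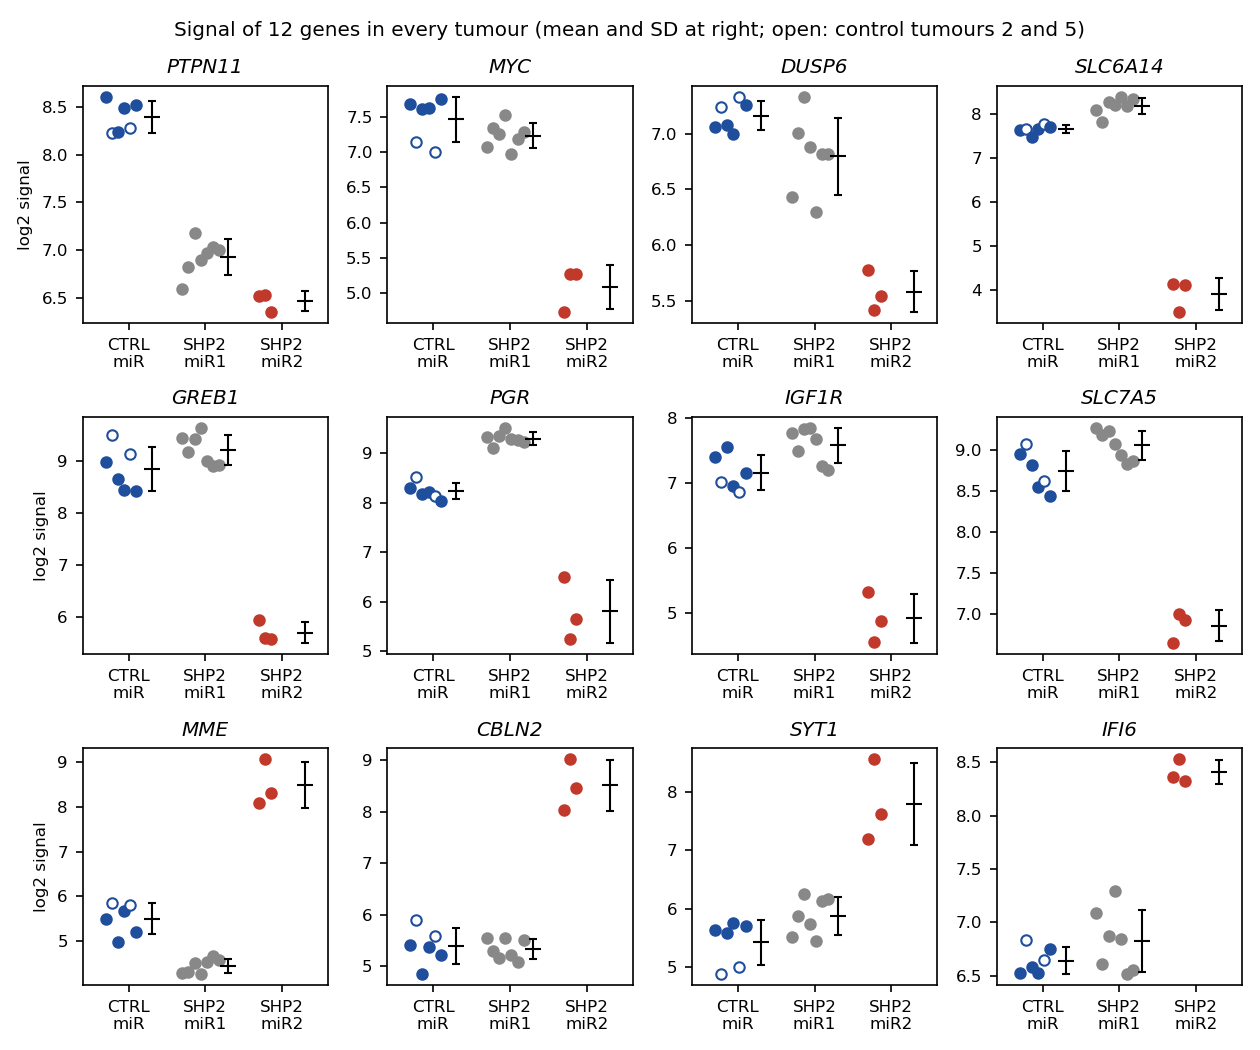
Log2 signal (vertical) of 12 genes in every CTRL miR (blue; tumours 2 and 5 open), SHP2 miR1 (grey) and SHP2 miR2 (red) tumour, with the mean and SD beside each group. In all 12 genes the 3 miR2 tumours lie outside the range of the 6 controls, and in 10 of them, all except PTPN11 and DUSP6, the gap to the nearest miR1 tumour is wider than the whole range of the miR1 tumours.

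Genes of ribosome biogenesis and growth, many of them targets of MYC, were lower throughout. All 31 measured members fell, against 18.2% of all genes, with a median change of -0.89 (-0.75 with quantile normalization). In 28 every miR2 tumour lay below every control, against 11.2% of all genes. The list was bright, with a median level of 7.67 against 5.81 over all genes. Of the 6126 genes in the brightest class 1934 fell. The ribosomal small-subunit factor BYSL had 6.75 to 7.23 in the controls (median 7.10) and 6.23, 6.18 and 6.04 with miR2. POLR1B, a large subunit of RNA polymerase I, had 7.30 to 7.75 (median 7.58) and 6.29, 6.90 and 6.08. Neither gene overlapped between the groups, with changes of -0.91 ± 0.11 and -1.12 ± 0.15 (SE; limma adjusted p = 1.75e-05 and 4.66e-05). WDR12, of the complex that matures the large ribosomal subunit, changed by -1.05, and the assembly factor RRS1 by -0.98. Part of this fall lay between the controls themselves: the mean of the list, relative to the mean of all controls, was -0.23 and -0.37 in control tumours 2 and 5, 0.073 to 0.20 in the other 4, and -0.95, -0.68 and -0.97 in the miR2 tumours. Relative to control tumours 2 and 5 alone 12 of 31 fell, with a median of -0.55, against 2.98% of all genes. With miR2 tumour 2 alone in its group BYSL changed by -0.88, POLR1B by -0.65, WDR12 by -0.69 and RRS1 by -0.73.

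MYC binds DNA at an E-box, CACGTG, which reads the same on both strands. In promoter windows of 300 bases around the transcript start (250 before, 50 after; RefSeq, GRCh38.p14), these letters occurred in 13 of 25 list members with an entry (52.0%) and in 8.77% of 27305 genes. Stretches of 60 bases upstream of the start are shown for the 3 members with the smallest adjusted p among those that held the motif there, to place the letters beside the genes that fell; capitals mark CACGTG.
UTP20 (chr12:101280045-101280104, plus strand): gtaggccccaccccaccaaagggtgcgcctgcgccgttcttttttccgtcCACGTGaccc
DDX21 (chr10:68956587-68956646, plus strand): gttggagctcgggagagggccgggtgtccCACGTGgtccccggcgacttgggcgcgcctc
SRM (chr1:11060185-11060244, minus strand): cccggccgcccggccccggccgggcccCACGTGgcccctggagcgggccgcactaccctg
UTP20, a component of the small-subunit processome, changed by -0.77, the nucleolar helicase DDX21 by -0.91 and the spermidine synthase SRM by -0.80; these 3 were chosen after their values were seen. UTP20 passed against control tumours 2 and 5 alone (-0.70), and DDX21 (-0.55, adjusted p = 0.0584) and SRM (-0.44, adjusted p = 0.107) did not. A match is a description of the letters and not a binding site. The list was put together partly from targets of MYC, so its E-box share says nothing on the fall with miR2. All 25 members with a promoter entry fell, so members with and without a fall cannot be compared.

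Cell cycle genes fell as well. All 29 measured mitosis genes fell (median -0.89, -0.77 with quantile normalization). Of 31 DNA replication genes 26 fell and 0 rose (median -0.72, -0.60 with quantile normalization). The shares of all genes were 18.2% lower and 11.8% higher. BIRC5, the survivin of the chromosomal passenger complex, had 6.85 to 7.48 in the controls (median 7.39) and 6.27, 6.29 and 6.26 with miR2, with no overlap (-0.99 ± 0.13, SE; limma adjusted p = 2.84e-05). KIF2C, a microtubule depolymerase at kinetochores, changed by -1.25, the helicase subunit MCM6 by -1.12 and CDC6, which loads that helicase, by -1.06 (-0.65, adjusted p = 0.0522 against control tumours 2 and 5). Again control tumours 2 and 5 lay lower than the other controls, at -0.28 and -0.36 for the mean of the mitosis list against 0.085 to 0.26, and the miR2 tumours lay at -0.92, -0.54 and -1.21. Relative to control tumours 2 and 5 alone 10 of 29 mitosis genes fell (median -0.55) and 2 of 31 replication genes, against 2.98% of all genes. With miR2 tumour 2 alone in its group, a group of 1 tumour, the changes were -0.97 for BIRC5, -0.65 for CDC20 and -0.81 for MCM6.

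Many mitotic genes carry the cell cycle homology region (CHR), TTTGAA or TTCAAA on the other strand, near their start. It occurred in 17 of 24 mitosis genes with a promoter entry (70.8%) and in 18.2% of the 27305 genes with an entry. All 24 fell, so here too members with and without a fall cannot be compared. The 3 stretches below were chosen as for the E-box, and capitals mark the CHR letters.
PRC1 (chr15:90994536-90994595, minus strand): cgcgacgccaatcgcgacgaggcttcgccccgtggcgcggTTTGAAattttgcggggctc
CDC20 (chr1:43358889-43358948, plus strand): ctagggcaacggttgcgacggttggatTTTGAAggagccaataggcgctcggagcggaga
TOP2A (chr17:40418015-40418074, minus strand): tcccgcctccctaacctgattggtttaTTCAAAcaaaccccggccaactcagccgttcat
PRC1, which bundles microtubules of the central spindle, changed by -0.89, CDC20, an activator of the anaphase-promoting complex, by -0.69, and the topoisomerase TOP2A by -0.87.

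Targets of the oestrogen receptor were among the largest falls, while the receptor gene itself rose. GREB1, a growth regulator induced by oestrogen, had 8.43 at the lowest, 8.82 at the median and 9.50 at the highest in the controls, and 5.93, 5.59 and 5.57 with miR2. PGR, the progesterone receptor, had 8.04, 8.20 and 8.52 in the controls by the same measures, and 6.51, 5.26 and 5.65 with miR2. The groups did not overlap. The changes were -3.16 ± 0.21 and -2.43 ± 0.18 (SE; limma adjusted p = 8.73e-09 and 3.12e-08), or 8.95-fold and 5.38-fold. TFF1, a secreted trefoil protein, changed by -0.98, and the secreted glycoprotein STC2 by -0.98. Of 19 measured oestrogen response list members 12 fell and 1 rose, against 18.2% and 11.8% of all genes, and 6 did not pass. The median was -0.49 (-0.32 with quantile normalization). Relative to control tumours 2 and 5 alone 11 fell and 0 rose (median -0.59), against 2.98% and 1.39% of all genes. The member that rose was the survival factor BCL2 (0.58, limma adjusted p = 0.00693; 0.48, adjusted p = 0.122 against control tumours 2 and 5). The mean of this list, relative to the controls, was -0.64, -0.70 and -0.72 in the miR2 tumours and between -0.14 and 0.11 in the controls.

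ESR1, which encodes oestrogen receptor alpha, had 5.33 to 6.20 in the controls (median 5.80) and 6.65, 7.30 and 6.85 with miR2. GATA3, a luminal transcription factor, had 7.98 to 8.55 (median 8.35) and 9.08, 9.50 and 9.27. All miR2 tumours lay above all controls in both genes, and the changes were 1.11 ± 0.18 and 1.01 ± 0.14 (SE; limma adjusted p = 0.00033 and 5.42e-05). The membrane mucin MUC1 rose too (1.71, limma adjusted p = 4.84e-05; 1.08 against control tumours 2 and 5). The luminal list as a whole was mixed, with 5 of 24 members higher and 3 lower, and 3 and 1 without miR2 tumour 3. Over all genes 11.8% were higher and 18.2% lower.

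Receptor and docking genes of the pathway that SHP2 serves did not move as a group. IGF1R, the receptor of insulin-like growth factor, had 6.86 to 7.55 in the controls (median 7.09) and 5.32, 4.56 and 4.89 with miR2, with no overlap (-2.23 ± 0.18, SE; limma adjusted p = 1.09e-07). IRS1, a docking protein of that receptor, had 5.38 to 6.51 in the controls (median 6.05) and 5.10, 5.14 and 5.31 with miR2. It fell by 0.84 on the log2 scale (limma adjusted p = 0.00335). PREX1, which activates the GTPase RAC, had 7.03 to 8.73 (median 7.80) in the controls and 5.27, 5.50 and 5.44 with miR2, a change of -2.39 (limma adjusted p = 1.01e-05). ERBB4, a receptor of the neuregulins, rose by 0.77 (limma adjusted p = 5.88e-05). The amplified ERBB2 had 10.59 to 11.26 in the controls and 11.04, 11.31 and 11.30 with miR2 and did not pass (0.27, limma adjusted p = 0.129; 95% interval -0.013 to 0.55), although it did with the array set as a block (0.41, adjusted p = 0.0146). ERBB3 (0.21; 0.39, adjusted p = 0.0429 with the set as a block), EGFR (0.091), the adaptors GAB1 (-0.035) and GAB2 (0.11) and the related phosphatase PTPN6 (0.40; 0.57, adjusted p = 0.0104 with quantile normalization) did not pass. EGFR and ERBB3 changed sign against control tumours 2 and 5, and GAB1 and GAB2 with quantile normalization. Of 20 measured SHP2 partners and adaptors 3 (IRS4, IRS1 and CBL) fell and 1 rose, and 5 fell without miR2 tumour 2. Over all genes 18.2% were lower and 11.8% higher, so these counts do not set the list apart. Against control tumours 2 and 5 alone 1 fell and 0 rose. IRS4 (-0.41, adjusted p = 0.284) and CBL (-0.28, adjusted p = 0.46) did not pass there. Of 16 ERBB receptors and ligands 3 rose and 2 fell, and 1 of each without miR2 tumour 3.

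Amino acid transporters and enzymes of amino acid synthesis were among the falls. SLC6A14, an importer of neutral and basic amino acids, had 7.49 at the lowest, 7.67 at the median and 7.78 at the highest in the controls and 4.12, 3.49 and 4.11 with miR2. No other gene fell by more: the change was -3.76 ± 0.14 (SE; limma adjusted p = 1.18e-12), a 13.5-fold fall. SLC7A5, the catalytic light chain of an importer of large neutral amino acids, had 8.43 to 9.07 (median 8.71) in the controls and 6.65, 7.01 and 6.93 with miR2. It changed by -1.88 ± 0.14 (SE; limma adjusted p = 3.61e-08). The enzymes of serine and glycine synthesis PHGDH (-1.28), PSAT1 (-1.51) and SHMT2 (-1.34) fell too. Of 25 unfolded protein and amino acid response list members 13 fell and 0 rose (median -0.36), against 18.2% and 11.8% of all genes. The other 12 did not pass. Against control tumours 2 and 5 alone 8 fell (median -0.41), and with quantile normalization over all controls 10 fell (median -0.28).

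Several other large falls were called against either set of controls. TCN1, a vitamin B12 binding protein, had 7.37 to 7.95 in the controls (median 7.48) and 4.69, 4.51 and 5.07 with miR2. MGP, the matrix Gla protein that inhibits calcification, had 6.83 to 7.15 (median 6.98) and 5.03, 4.65 and 4.42. Their changes were -2.84 and -2.28, and -3.16 and -2.43 against control tumours 2 and 5 alone. The cytochrome P450 pseudogene CYP2B7P (-2.83), the sialyltransferase ST8SIA6 (-2.08) and the arylsulfatase ARSJ (-1.89) fell likewise. Probes of a pseudogene can also read its parent gene, so CYP2B7P is uncertain.

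Of the 12 largest falls, 6 came mainly from control tumours 1, 3, 4 and 6. IRS4 changed by -3.17 (limma adjusted p = 0.00655) against all controls and by -0.41 relative to control tumours 2 and 5 (adjusted p = 0.284). The homeobox gene HOXD10 changed by -2.88 and -0.35, the replication fork protein gene RADX by -2.79 and -0.090, the chromatin remodeller SMARCA1 by -2.50 and -0.057, and the decarboxylase ECHDC1 by -2.44 and -0.29. In the latter comparison none of these 5 passed (adjusted p from 0.284 to 0.857), and RADX and SMARCA1 did not pass without miR2 tumour 3 (adjusted p = 0.0508 and 0.0545). The actin bundler PLS3 (-2.88) still fell there, by 0.74 (adjusted p = 0.0266). LIN28B (-1.30), a blocker of let-7 maturation, and ZEB1 (-0.83), a repressor of epithelial genes, had changes of 0.068 and 0.19 against control tumours 2 and 5. LIN28B did not pass without miR2 tumour 1 or 3 (adjusted p = 0.0745 and 0.0802), and ZEB1 did not pass when any 1 tumour other than control tumour 2 or 5 was left out. The hyaluronan receptor CD44 (0.46, adjusted p = 0.11) did not pass against all controls, and it did without control tumour 2 (0.62, adjusted p = 0.0127) or 5 (0.56, adjusted p = 0.0345). The stem cell factor SOX2 rose by 0.56 (limma adjusted p = 0.0112) and did not pass without miR2 tumour 1 (0.49, adjusted p = 0.0701) or 2 (0.44, adjusted p = 0.0526), or against control tumours 2 and 5 (0.40, adjusted p = 0.251).

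Among the 12 largest rises were genes known from synapses and from secretory epithelia. CBLN2, a secreted organiser of synapses, had 4.85 at the lowest, 5.40 at the median and 5.90 at the highest in the controls, and 8.03, 9.02 and 8.46 with miR2. MME, the surface peptidase neprilysin, had 4.99, 5.59 and 5.85 by the same measures in the controls, and 8.08, 9.07 and 8.30 with miR2. The groups were more than 2 log2 units apart at their nearest tumours in both genes, with gaps of 2.13 and 2.23. The changes were 3.11 ± 0.20 and 2.98 ± 0.20 (SE; limma adjusted p = 7e-09 and 8.73e-09), or 8.66-fold and 7.88-fold.

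SYT1, the calcium sensor of synaptic vesicles, had 4.88 to 5.76 in the controls (median 5.61) and 7.19, 8.57 and 7.62 with miR2. PPFIA2, a liprin of presynaptic sites, had 4.56 to 4.98 (median 4.70) and 6.44, 7.69 and 7.20. Neither gene overlapped between groups, and in both miR2 tumour 2 was the highest. GRIK2, a kainate receptor subunit, changed by 1.95, the netrin receptor UNC5C by 1.75, VSTM2A by 2.42 and PVALB, a calcium binder of interneurons and of fast muscle, by 1.86. Of 44 measured neuronal and synaptic genes 19 rose and 5 fell, against 11.8% and 18.2% of all genes, and 20 did not pass. The median of the list was 0.32 (0.22 with quantile normalization). Relative to control tumours 2 and 5 alone 11 rose and 0 fell (median 0.18), against 1.39% and 2.98% of all genes. The members that fell were the adhesion genes NLGN1 (-0.70) and NCAM1 (-0.63), the enolase ENO2 (-0.48) and the neurofilaments NEFL (-0.86) and NEFM (-1.13). These falls were 0 or 1 without control tumour 1 or 3 or any of the miR2 tumours, and 2 without control tumour 4 or 6. The median level of the list was 4.58, against 5.81 over all genes, where dim genes in general had small rises.

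Among secretory genes, the gel-forming mucin MUC19 had 3.56 to 4.32 in the controls (median 3.91) and 5.50, 7.19 and 5.96 with miR2 (2.31, limma adjusted p = 6.37e-05). OTOGL, related to the gel-forming mucins, had 2.68 to 2.80 in the controls, under the lower quartile of each, where the level may be background, and 4.03, 5.79 and 5.07 with miR2. The milk protein lactoferrin, LTF, had 4.34 to 5.33 (median 4.82) and 7.20, 6.23 and 7.23, a change of 2.04 (limma adjusted p = 3.54e-06). Of 30 mucin and secretory genes 5 rose and 3 fell, against 11.8% and 18.2% of all genes. Without control tumour 5 the rises were 11. The falls were TFF1, AGR2 (-0.49), a disulfide isomerase of secretory cells, and the breast secretoglobin SCGB2A2 (mammaglobin), which had 8.04 to 9.56 in the controls and 6.27, 6.76 and 6.31 with miR2 (-2.19, limma adjusted p = 7.47e-05; -3.11 against control tumours 2 and 5). STS, the steroid sulfatase that releases active oestrogen precursors, had 6.61 to 7.27 (median 7.07) in the controls and 8.66, 9.60 and 9.09 with miR2, a change of 2.104 ± 0.20 (SE; limma adjusted p = 6.74e-07). The other genes among the 12 largest rises were the noncoding RNA LINC00417 (2.42), the ankyrin repeat pseudogene ANKRD20A11P (2.21; uncertain, since near-identical copies exist) and the centrosome gene CEP126 (2.06).

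About as many interferon-induced genes rose with miR2 as did not. IFI6, an antiviral membrane protein, had 6.52 at the lowest, 6.61 at the median and 6.83 at the highest in the controls and 8.36, 8.53 and 8.32 with miR2. The groups did not overlap and the change was 1.76 ± 0.15 (SE; limma adjusted p = 1.39e-07). DDX60, a helicase of antiviral sensing, had 4.57 to 5.28 (median 4.72) and 5.98, 6.81 and 5.69. OAS1, which makes the signal that activates RNase L, had 4.38 to 4.89 (median 4.53) and 5.49, 6.17 and 5.28. Neither overlapped, and miR2 tumour 2 was the highest in both. IRF9, the DNA-binding subunit of the interferon-activated complex ISGF3, changed by 1.097. Of 35 measured members 18 rose and 3 fell (median 0.34), against 11.8% and 18.2% of all genes, and 14 did not pass. On quantile-normalized values the counts were 12 and 1 (median 0.25). Relative to control tumours 2 and 5 alone 5 rose and 0 fell (median 0.31), against 1.39% and 2.98% of all genes. The members that fell were IFITM2 (-0.65), USP18 (-0.45) and HERC5 (-0.90). These falls were 1 without miR2 tumour 1 or 3 or control tumour 1, 3 or 4. With arrays centred on their medians 11 members rose. The mean of the list, relative to the control mean, was 0.33, 0.52 and 0.19 in the miR2 tumours and that of the macrophage markers was 0.58, 0.18 and 0.53. The part of macrophages in the interferon result was not tested.

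The interferon-stimulated response element (ISRE), to which ISGF3 binds, was searched as GAAA, any 2 bases and GAAA, or TTTC, any 2 bases and TTTC on the other strand. These letters occurred in 21 of 28 list members with a promoter entry (75.0%) and in 11 of the 15 of them that rose. The motif was thus about as common among the members that rose as in the whole list. It occurred in 4.38% of the 27305 genes with a promoter entry. The 3 stretches were chosen as before, and capitals mark the ISRE letters.
IFI6 (chr1:27672251-27672310, minus strand): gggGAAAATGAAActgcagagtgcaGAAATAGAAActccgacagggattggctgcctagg
DDX60 (chr4:168318771-168318830, minus strand): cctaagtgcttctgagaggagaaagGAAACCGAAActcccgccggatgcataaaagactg
IFI44 (chr1:78649729-78649788, plus strand): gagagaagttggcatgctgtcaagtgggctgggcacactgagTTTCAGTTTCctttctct
The stretch of IFI6 holds 2 matches. IFI44, an interferon-induced protein, rose by 0.88 (limma adjusted p = 0.00211; 0.77, adjusted p = 0.091 against control tumours 2 and 5), and its control values were under the lower quartile of each control array.

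Members of the antigen presentation and cytokine lists rose as well. Of 12 antigen presentation genes 7 rose and 0 fell (median 0.38), against 11.8% and 18.2% of all genes. Of the 12, 4 rose without miR2 tumour 1 or 3. With arrays centred on their medians 3 rose, and 2 rose relative to control tumours 2 and 5 alone. The immunoproteasome subunit PSMB9 had 4.21 to 4.68 in the controls and 5.16, 5.09 and 5.15 with miR2 (0.67, limma adjusted p = 0.000226). B2M, the light chain of class I molecules, had 7.82 to 8.09 and 8.28, 8.42 and 8.35 (0.45, limma adjusted p = 0.00203). Of 27 cytokines and NF-kB targets 10 rose and 1, the superoxide dismutase SOD2 (-0.69), fell (median 0.30), against the same shares of all genes. Their rises depended on the arrays, with 3 and 2 members without miR2 tumours 1 and 3, 5 and 6 without control tumours 1 and 3, 5 with arrays centred on their medians, and 1 against control tumours 2 and 5. With quantile normalization 7 cytokine list members rose (median 0.21) and 5 antigen presentation genes did (median 0.31). The cytokine list mean, relative to the controls, was 0.40, 0.14 and 0.38 in the miR2 tumours. That of antigen presentation was 0.32, 0.26 and 0.32. Both had the same order of tumours as the macrophage markers, at 0.58, 0.18 and 0.53. Tumours 1 and 3 are also the miR2 arrays with the narrower spread of values. The lower quartiles of the miR2 arrays were 4.01, 3.87 and 4.04, against 3.73 to 3.94 in the controls. Lymphocyte markers (0.40, 0.14 and 0.48) and blood cell markers (0.32, 0.083 and 0.35) were lowest in tumour 2 as well. The parts of host cells and of array spread in these rises were not tested. IL6 was the 1 cytokine gene that rose against control tumours 2 and 5: it had 3.17 to 3.72 in the controls, under the lower quartile of each, where the level may be background, and 4.86, 4.67 and 4.16 with miR2 (1.09, limma adjusted p = 2.09e-05). Of 19 genes of cytokine receptor signalling and JAK-STAT feedback 3 rose and 3 fell. The rises were the growth hormone receptor GHR (1.70), the feedback inhibitor SOCS2 (0.74) and its relative SOCS3 (0.89). Relative to control tumours 2 and 5 SOCS3 changed by 0.69 (limma adjusted p = 0.0548). The repressor BCL6 (-1.03) was 1 of the 3 falls.

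**Figure D3:**
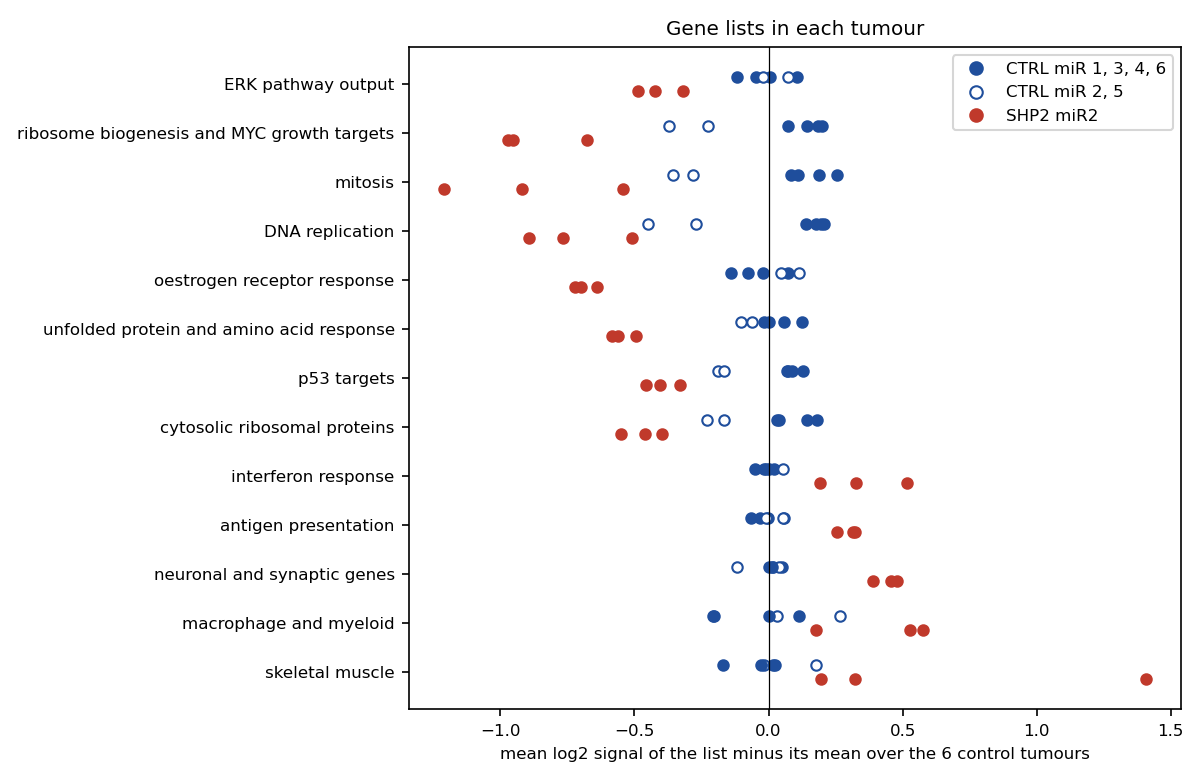
Mean log2 signal of 13 gene lists in each tumour, minus the mean of the 6 controls (horizontal), for control (blue; tumours 2 and 5 open) and miR2 tumours (red). For ribosome biogenesis, mitosis and DNA replication control tumours 2 and 5 lie between the other controls and the miR2 tumours, and for skeletal muscle miR2 tumour 1 lies apart at 1.41.

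Members of the p53 target and ribosomal protein lists fell too. Of 20 p53 targets 13 fell and 2 rose (median -0.57), against 18.2% and 11.8% of all genes. Of the 20, 8 fell without miR2 tumour 3, and 3 fell relative to control tumours 2 and 5 alone (median -0.21). The mean of this list, relative to the controls, was -0.41, -0.33 and -0.46 with miR2, below every control, of which tumours 2 and 5 had -0.19 and -0.17. The death receptor TNFRSF10B had the largest change of that list (-1.67, limma adjusted p = 3.61e-07; -1.25 against control tumours 2 and 5). Of 27 cytosolic ribosomal proteins 18 fell (median -0.45) and 2 against control tumours 2 and 5 (median -0.27). Their mean was -0.46, -0.40 and -0.55 with miR2 and -0.17 and -0.23 in control tumours 2 and 5, the lowest of the controls. Of 27 respiratory chain and ATP synthase genes 13 fell, 3 without miR2 tumour 1, 1 without miR2 tumour 3, and 0 against control tumours 2 and 5. Their median was -0.31. With quantile normalization 11 p53 targets, 14 ribosomal proteins and 6 respiratory chain genes fell. The medians were then -0.47, -0.39 and -0.17.

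In the next lists, calls against all controls are to be read against the shares of all genes, 11.8% higher and 18.2% lower. The calls are few in each list, and the lists were not tested against those shares. Against control tumours 2 and 5 alone the shares were 1.39% higher and 2.98% lower. In hypoxia and glycolysis 6 of 24 fell and 1 rose, with the glycolytic enzymes ENO1 at -1.02 and LDHA at -0.89 (-0.63, adjusted p = 0.0576 for LDHA against control tumours 2 and 5). Of 19 FOXO targets 5 fell and 2 rose, 3 and 1 without miR2 tumour 3, with PDK4, an inhibitor of pyruvate dehydrogenase, at -1.38 (limma adjusted p = 2.84e-05). Of 16 androgen and glucocorticoid response genes 2 fell against all controls and 6 against control tumours 2 and 5. The kinase SGK1 changed by -1.22 and -2.06 and the secreted AZGP1 by -1.27 and -1.56. The mean of that list, relative to all controls, was 0.54 and 0.35 in control tumours 2 and 5. It was -0.26 to -0.19 in the other controls and -0.029, -0.21 and -0.14 with miR2.

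In the same way, of 18 genes of epithelial-mesenchymal transition 6 rose and 2 fell. TWIST1, a transcription factor of that list, had 6.14 to 6.44 in the controls (median 6.26) and 7.06, 7.29 and 7.18 with miR2, with no overlap (0.89 ± 0.095, SE; limma adjusted p = 3.56e-06; 0.97 against control tumours 2 and 5). Of 16 stem and progenitor genes 3 rose and 4 fell, with the zinc finger factor SALL4 at 1.02, the laminin receptor subunit ITGA6 at -1.12 and the retinal dehydrogenase ALDH1A3 at -0.72. Those 3 also passed against control tumours 2 and 5. In cholesterol and fatty acid synthesis 3 of 20 fell, 0 without miR2 tumour 3. In the 17q12 amplicon, which holds ERBB2, 5 of 17 rose and 2 fell, with 2 rises without miR2 tumour 3, 1 fall without miR2 tumour 2 or 3 and 0 falls without miR2 tumour 1. Of 15 basal and myoepithelial genes 1 rose and 2 fell, and of 17 immediate-early and stress genes 2 rose and 0 fell. In JAK-STAT feedback 3 of 19 rose and 3 fell. These small counts moved with single tumours: the rises of stem and progenitor genes were 1 without miR2 tumour 1 and 6 without control tumour 5, the falls of the transition genes 0 without miR2 tumour 1 and 4 without control tumour 2, and the rises of basal genes 3 and of immediate-early genes 1 without miR2 tumour 2.

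**Figure D4:**
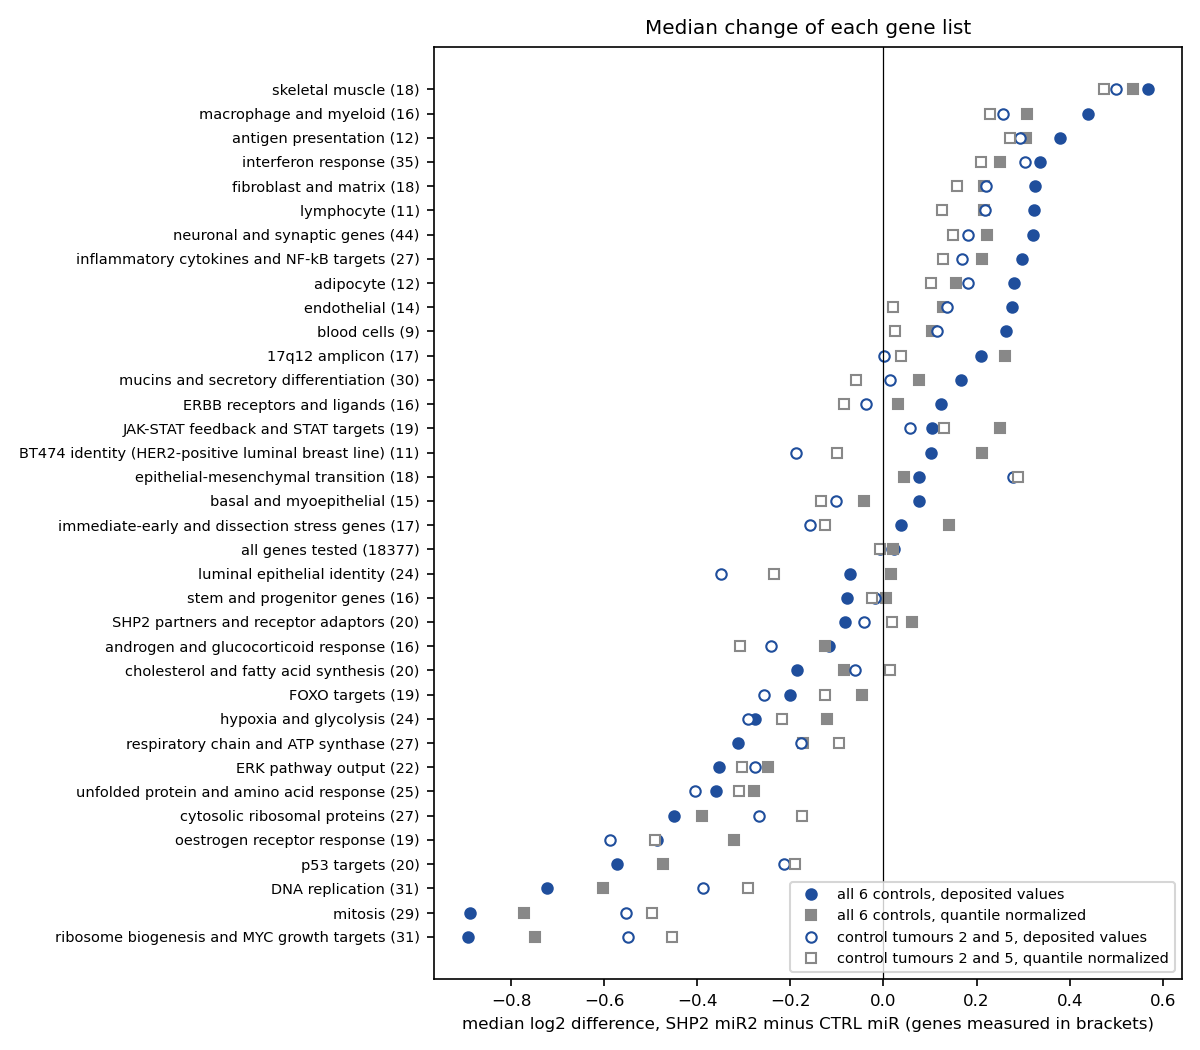
Median log2 difference between miR2 and control tumours (horizontal) of each gene list, with the number of genes measured, against all 6 controls (filled) or control tumours 2 and 5 alone (open), with deposited values (circles) or quantile normalization (squares). Many lists keep their sign in all 4 fits. Ribosome biogenesis, mitosis, DNA replication, the oestrogen response and ERK output lie below 0 in all 4. So do p53 targets, amino acid responses, ribosomal proteins and the respiratory chain, among others. The interferon, neuronal and muscle lists lie above 0 in all 4, as do antigen presentation, cytokines and the other host marker lists, among others.

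Some markers of host cell types were called as well. Their counts are to be read against the 11.8% of all genes called higher and the 18.2% called lower. The counts for lymphocytes and blood cells do not set those lists apart. Host cells are murine, and the human probe sets read them only as far as mouse transcripts hybridise. Of 16 macrophage markers 9 rose and 0 fell (median 0.44), of 18 fibroblast and matrix markers 9 rose and 2 fell, of 14 endothelial markers 4 rose, of 12 adipocyte markers 4 rose and 1 fell, of 18 muscle markers 5 rose, of 11 lymphocyte markers 2 rose and of 9 blood cell markers 1 rose. At most 1 marker of each of these lists rose relative to control tumours 2 and 5 alone. In the order above, quantile normalization over all controls left 8, 5, 3, 4, 3, 1 and 0 rises. The list medians were then 0.31, 0.22, 0.13, 0.16, 0.54, 0.22 and 0.10. In deposited values they were 0.44, 0.33, 0.28, 0.28, 0.57, 0.32 and 0.26. Over all genes of the dimmest class the median was 0.19 in deposited values and 0.054 with quantile normalization. Without miR2 tumour 1 the rises were 2 for macrophages, 3 for fibroblasts, 1 for endothelium, 1 for adipocytes and 2 for muscle, and without miR2 tumour 3 they were 2, 5, 1, 1 and 3. Without control tumour 1 the fibroblast rises were 4, and without control tumour 5 the endothelial, lymphocyte and blood cell rises were 7, 7 and 5. Without miR2 tumour 2 the muscle, lymphocyte and blood cell rises were 9, 4 and 3. The level of a list is given as the mean log2 signal of its members. For macrophages it was 4.10 to 4.57 in the controls and 4.48 to 4.88 with miR2, for fibroblasts 5.16 to 5.38 and 5.42 to 5.57, for endothelium 4.34 to 4.62 and 4.48 to 4.78, and for muscle 4.57 to 4.92 and 4.93 to 6.15. For adipocytes it was 4.40 to 4.66 and 4.55 to 4.83, for lymphocytes 3.99 to 4.49 and 4.35 to 4.69, and for blood cells 4.22 to 4.63 and 4.43 to 4.70. The markers below the lower quartile in all 9 arrays were 2 of 16 for macrophages, 3 of 18 for fibroblasts, 1 of 14 for endothelium, 0 of 18 for muscle, 1 of 12 for adipocytes, 3 of 11 for lymphocytes and 1 of 9 for blood cells. The muscle level was highest in miR2 tumour 1, at 1.41 above the control mean, against 0.19 and 0.32 in the others. PVALB, which is in the muscle and the neuronal list, had 6.98, 6.87 and 6.02 in the miR2 tumours and 4.60 to 4.93 in the controls. In the 7 miR1 tumours PVALB was 5.44 to 5.58 in tumours 2, 3, 6 and 7, whose muscle level was 5.27 to 5.66, and 4.70 to 4.86 in the others, whose muscle level was 4.56 to 4.68. LYZ (0.89), a macrophage lysozyme, and the collagen COL1A2 (0.78) rose, whereas the collagen COL5A2 fell (-1.02). The part of host cells in the rises of neuronal genes was not tested.

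The same genes were compared between SHP2 miR2 and SHP2 miR1, which share the control tumours in any comparison with CTRL miR, so only the direct test is given. Over all genes 1510 were higher (8.22%) and 2626 lower (14.3%) with miR2 than with miR1. The counts were 972 in both directions within array set B, and 1659 and 1310 without miR2 tumours 1 and 3. MYC was 7.23 on average with miR1 (range 6.96 to 7.52) and lower with miR2 by 2.14 ± 0.17 log2 units (SE; limma adjusted p = 5.08e-08). MME was 4.45 on average with miR1 (range 4.26 to 4.67), below all control tumours, and 4.03 higher with miR2 (limma adjusted p = 7.16e-11). PGR (-3.49), GREB1 (-3.52), SLC6A14 (-4.28), IGF1R (-2.66), SLC7A5 (-2.19) and DUSP6 (-1.22) were lower with miR2, and CBLN2 (3.16), SYT1 (1.91), STS (1.99) and IFI6 (1.58) were higher, each with a limma adjusted p of 5.46e-05 or less. PTPN11 itself was lower with miR2 (-0.46, limma adjusted p = 0.0115). MUC19 (0.33, adjusted p = 0.429), ETV4 (-0.39, 0.0583), ETV5 (-0.17, 0.383) and ERBB4 (0.13, 0.359) did not pass between the hairpins.

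By list, 29 of 31 ribosome biogenesis genes, 29 of 29 mitosis genes and 25 of 31 replication genes were lower with miR2 than with miR1. So were 13 of 19 oestrogen response genes and 13 of 25 members of the list of unfolded protein and amino acid responses. Each of these lists had 0 members higher. The mean of the oestrogen response list, relative to the controls, was 0.15 to 0.39 in the miR1 tumours, above every control. Those of ribosome biogenesis, mitosis and replication lay within the control range. Of the interferon genes 13 were higher and 2 lower, and of the neuronal genes 17 were higher and 0 lower. Of the ERK output list 5 of 22 were lower and 1 was higher.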

How the data were processed

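RNA of 16 xenograft tumours was hybridised to human gene arrays, 1 array per tumour. The authors deposited 1 table of signals per transcript cluster, which was taken to hold log2 values because they ran from 1.54 to 13.63. R 2.10 and oligo 1.8 are named per the submitters' processing notes, and neither background correction nor normalization is given in the sources used here. The values were used as deposited.

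Groups came from the titles. Of 28869 clusters 7807 had no symbol and 1752 several, and these were left out. For the 685 genes with several clusters the cluster with the highest mean was used. A model with 3 groups was fitted to the 16 arrays with limma 3.58.1 (R 4.3.3) by lmFit and eBayes, which left 13 residual degrees of freedom, and p-values were adjusted with Benjamini-Hochberg over 18377 genes. A gene was called at an adjusted p below 0.05. On simulated data with 200 changed genes, 40.3%, 85.1% and 98.5% of log2 changes of 0.5, 1 and 2 were recovered for this comparison, with 11 false calls. The simulated noise was independent between arrays, with no shift by signal level, no split of the controls and no array sets. These numbers check the fit and do not measure the errors among the real calls. No 2 of the 9 miR2 and control arrays held the same values, and the miR1 arrays were not included in that check.

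Genes named were PTPN11, 21 pathway genes, the 12 called genes with the largest rise and the 12 with the largest fall, the 12 with the widest gap between groups each way, and up to 4 called members of each list by adjusted p; the promoter examples were added. The members and the 35 gene lists were chosen with earlier results of these data known. Promoter sequences are those of RefSeq (GRCh38.p14). The alternatives were quantile and cyclic loess normalization, median centring, a filter on low signals, all clusters, array weights, a trended robust prior, only the 9 arrays, the array set or the replicate number as a block, set B alone, control tumours 2 and 5 alone, miR2 tumour 2 alone and each tumour left out. Control tumours 2 and 5 with quantile normalization was chosen after seeing the data. Figures were drawn with matplotlib 3.10.9.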

Additional observations from a re-analysis of the deposited data

Results flagged for a closer look

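Among the 6 control tumours of 155 genes, 1 tumour lay far from the other 5 in 6 genes, by Dixon's criterion at its 95% critical value, which chance alone passes in about 1 of 20 groups. Control tumour 5 was highest for SIRPA, a receptor that recruits SHP2 and SHP1, at 6.189, for TFF1 at 9.552 and for VWF, an endothelial marker, at 4.858. Control tumour 1 was highest for B2M at 8.091. Control tumour 3 was lowest for IKZF3, a gene near ERBB2, at 6.849, and control tumour 6 was lowest for the death receptor TNFRSF10A at 5.929. The values are log2 signals.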

How the results depend on the processing

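PTPN11 was lower and passed in every alternative run, with changes of -1.97 to -1.88 when 1 tumour was left out. The number of genes higher with miR2 was 1295 with median centring, 1300 without the third of genes with the lowest signal, 3274 over all clusters, 4260 with array weights, 1133 with only the 9 arrays, 256 against control tumours 2 and 5, 310 there with quantile normalization, 716 in set B and 273 with miR2 tumour 2 alone. The number lower was 547, 527, 1834 and 177 in the last 4 of these. Leaving out 1 tumour gave 781 to 3627 higher and 1610 to 4112 lower. Of the 256 genes higher against control tumours 2 and 5, 224 were also called against all controls, and of the 547 lower, 492. Genes that differed between miR2 and miR1 numbered 2302 with cyclic loess, 7180 with array weights, 2523 with the array set as a block, 972 in set B, 304 with miR2 tumour 2 alone, and 1310 to 5923 when 1 tumour was left out. Fewer samples or genes entered several of these fits; otherwise the cause was not tested.

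Same-numbered miR2 and control tumours had correlations of -0.171, 0.0216 and -0.21 between their deviations from the group means. These values gave no sign of pairing by number, but they cannot show whether tumours shared an animal or a batch. With the replicate block 3444 genes were higher with miR2 and 6773 differed between the hairpins.

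Some genes changed sign. Against control tumours 2 and 5 the change was -0.0896 for ERBB3, -0.2047 for EGFR (-0.0948 there with quantile normalization), -0.2026 for CD44 (-0.1396), 0.0683 for LIN28B (0.0926) and 0.1918 for ZEB1 (0.0746). EGFR was -0.0257 with the replicate block. GAB1 was 0.0935 with quantile normalization, 0.0420 there against control tumours 2 and 5, 0.05 with loess, 0.0165 with the array set as a block, 0.0126 in set B and 0.1182 with miR2 tumour 2 alone; GAB2 was -0.0114 with quantile normalization, -0.0764 with loess and -0.1308 with miR2 tumour 2 alone. When 1 tumour was left out GAB1 ranged from -0.1122 to 0.0390 and GAB2 from -0.0095 to 0.2239. The precision is limited by 3 miR2 tumours, 2 of them with a narrower spread of values, and by all 3 lying in 1 array set.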
